A study of Mus musculus with 20 samples.

Results

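A set of 10 genes that FGF-ERK signaling switches on and that in turn adjust it were described in the preoptic area (POA) of male mice: *Spry1*, *Spry2*, *Spry4*, *Spred1*, *Spred2*, *Dusp4*, *Dusp6*, *Il17rd*, *Etv4* and *Etv5*. They were chosen by name, for what they are known to do, but with earlier results of these data known. They are 10 of the 25239 genes in the count table. Bulk RNA-seq measured RNA of the POA in 20 males that fall into 4 groups of 5. Males of either genotype, control or dnFGFR, were paired at postnatal day (PND) 20 with a same-sex (SS) male or an opposite-sex (OS) female and were studied at PND320, after 300 days. Groups are named by genotype and housing, such as control SS or dnFGFR OS. OS-housed males could breed, so OS housing also meant litters in the cage. The dnFGFR transgene codes for an FGFR1 that lacks its kinase domain, and a rat GnRH promoter directs it to GnRH neurons. These are rare cells of the POA, whereas the RNA came from the whole dissected block. Breeding pairs of the dnFGFR line were homozygous for the transgene, and controls came from matings of heterozygous siblings of that line.

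An FGF that binds its receptor starts a relay through RAS, RAF, MEK and ERK. ERK then raises transcription of ETS factors such as *Etv4* and *Etv5*, and of genes whose products slow the same relay. The Sprouty and Spred proteins act at the level of RAS and RAF, Sef (*Il17rd*) acts at the membrane and on MEK-ERK, and DUSP4 and DUSP6 remove phosphate from ERK. Transcripts of this kind are widely used as a readout of FGF-ERK activity, although other growth factors and neuronal activity use the same relay. In brain, several of them are expressed in glia as well as in neurons.

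None of the 10 genes changed with housing or with genotype at an adjusted p under 0.1. This held for housing within either genotype, for genotype within either housing, and for the difference between the housing effects of both genotypes. The largest fitted difference in a pair of groups was a log2 fold change of -0.27 (SE 0.093), for *Spry1* in OS against SS control mice. The outermost bounds of the 95% intervals over all 10 genes and the 4 pairs of groups were a fold of 0.644 and a fold of 1.35. What the genes did show was variation between mice of the same group: *Spry2* rose and fell with *Egr2* (Pearson's r = 0.888 over 20 mice), and *Dusp6* with *Arc* (r = 0.727). Both come from a comparison added after the data had been seen, and that of *Dusp6* did not pass by Spearman's rho. The part of cell composition in these relations was not tested.

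Counted reads per mouse ranged from 32353578 to 39871353, with a median of 34991611.5, and each of the 10 genes had at least 101 reads in every mouse. dnFGFR OS replicate 5 stood apart, with reads in 18416 genes against 19101 to 19659 in the other mice. Some results that involve it are also given without it, but the relations with cell type markers are not. *Gnrh1*, the marker of the cells that carry the transgene, averaged 2.02 ± 0.454 CPM, reads scaled to a common library size (SD, n = 5), in control SS, 2.01 ± 0.372 in control OS, 1.27 ± 0.16 in dnFGFR SS and 1.42 ± 0.416 in dnFGFR OS mice. It was lower in dnFGFR than in control mice over both housings (log2 fold change -0.58, SE 0.152, edgeR adjusted p = 0.0777), a call that held under 10 of 25 alternatives, with adjusted p from 0.025 to 0.155. *Fgfr1*, from which the transgene derives, differed by -0.02 (SE 0.0419), and the level of the transgene itself was not analysed here. All 11 markers of POA neurons were detected, with a summed level of 348 to 549 CPM. The 8 markers of striatal medium spiny neurons were detected too, with a sum of 3550 to 5010 CPM in the other groups and 2480 to 3620 CPM in dnFGFR OS mice. The 6 choroid plexus markers ranged from 35.1 to 2170 CPM between mice. In bulk tissue fewer cells of a type and less RNA per cell cannot be told apart.

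The genes lie apart in the mouse genome (RefSeq positions on GRCm38). The Sprouty genes *Spry1* and *Spry2* are at chr3:37639947-37644599 and chr14:105891947-105896819. *Spred1* is at chr2:117121071-117182279 and *Spred2* at chr11:19924442-20024026. *Il17rd* is at chr14:27038964-27107286. The phosphatase genes *Dusp4* and *Dusp6* are at chr8:34807610-34819894 and chr10:99263231-99267489, and the ETS genes *Etv4* and *Etv5* at chr11:101769747-101785310 and chr16:22381313-22439570. Of all 10 genes, *Spry1* was the one with exons that overlap those of another annotated gene: 710 bases (24.4% of its exon length) lie across from Gm42922 on the opposite strand. Whether reads were counted by strand is not stated, so reads of Gm42922 could be part of the *Spry1* values.

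The 250 bases before the transcription start are shown for *Spry2*, *Dusp6* and *Spry1* (RefSeq, GRCm38.p6, coding strand, 5′ to 3′). *Spry2* and *Dusp6* each passed with an activity-regulated gene by Pearson's r, and *Spry1* had no such relation past the threshold. A link between these letters and the covariation was not tested. The windows are chr14:105896820-105897069 (minus strand), chr10:99262981-99263230 (plus strand) and chr3:37639697-37639946 (plus strand). Capitals mark GGAA on either strand, the core letters that ETS factors such as ETV4 and ETV5 recognise.
Spry2: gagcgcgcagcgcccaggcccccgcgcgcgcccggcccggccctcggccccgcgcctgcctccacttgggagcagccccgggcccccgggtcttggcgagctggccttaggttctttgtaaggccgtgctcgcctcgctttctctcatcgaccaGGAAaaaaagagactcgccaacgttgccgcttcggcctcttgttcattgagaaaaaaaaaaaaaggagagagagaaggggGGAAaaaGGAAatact
Dusp6: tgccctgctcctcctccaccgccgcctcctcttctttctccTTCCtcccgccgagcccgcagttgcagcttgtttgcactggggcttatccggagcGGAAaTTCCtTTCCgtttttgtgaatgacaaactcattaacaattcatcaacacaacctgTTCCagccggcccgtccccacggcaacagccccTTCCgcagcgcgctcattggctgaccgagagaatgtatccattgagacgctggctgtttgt
Spry1: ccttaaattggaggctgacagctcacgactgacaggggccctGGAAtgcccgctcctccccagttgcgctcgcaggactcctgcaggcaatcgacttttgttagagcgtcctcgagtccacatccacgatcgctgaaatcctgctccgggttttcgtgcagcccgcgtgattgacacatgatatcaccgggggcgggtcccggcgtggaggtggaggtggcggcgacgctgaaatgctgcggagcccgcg
GGAA occurred 3 times before *Spry2*, 6 times before *Dusp6* and 1 time before *Spry1*. These letters are common: 93.4% of 32851 windows of 250 bases held them, with a median of 3 matches, and 7 of 8 windows of the 7 genes that could be matched held them (*Spry1*, *Spry2*, *Spred1*, *Spred2*, *Dusp6*, *Il17rd* and *Etv5*). *Spry4*, *Dusp4* and *Etv4* were not matched. Longer motifs were searched on both strands: the EGR motif GCGNGGGCG (4.7% of all windows), the CRE TGACGTCA (1.55%), the longer ETS motif CCGGAAGT (2.88%, which contains the GGAA core), the AP-1 motif TGANTCA (6.75%) and the CArG box (1.47%). Each of these was in 0 of the 8 windows. The CRE half-site TGACG, in 17.8% of all windows, was in 1, that of *Spred2*.

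Levels between genes were compared as CPM per kb of exon, averaged over the 20 mice. *Spred1* was highest, at 35.9 ± 3.71 (SD), followed by *Spry2* at 22.7 ± 1.97 and then *Etv5*, which ranged from 14.7 to 23.8. *Spred2* (12.2 ± 1.49) and *Dusp6* (10.4 ± 1.36) came next. *Spry1* (3.44 ± 0.467), *Dusp4* (3.21 ± 0.444), *Spry4* (2.99 ± 0.268) and *Etv4* (2.75 ± 0.309) lay close together. *Il17rd* was lowest at 0.474 ± 0.0775. Between neighbours in this order, the ranges over the mice did not overlap for *Spred1* and *Spry2*, for *Dusp6* and *Spry1*, and for *Etv4* and *Il17rd*. *Etv5* was above *Spred2* in 20 of 20 mice although their ranges touched, whereas *Spry1* was above *Dusp4* in 14 of 20. Among 21514 genes with reads and an exon length, *Spred1* stood at the 93.5th percentile and *Il17rd* at the 30.1st. Inhibitors of the relay stood at both ends of the order.

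**Figure D1:**
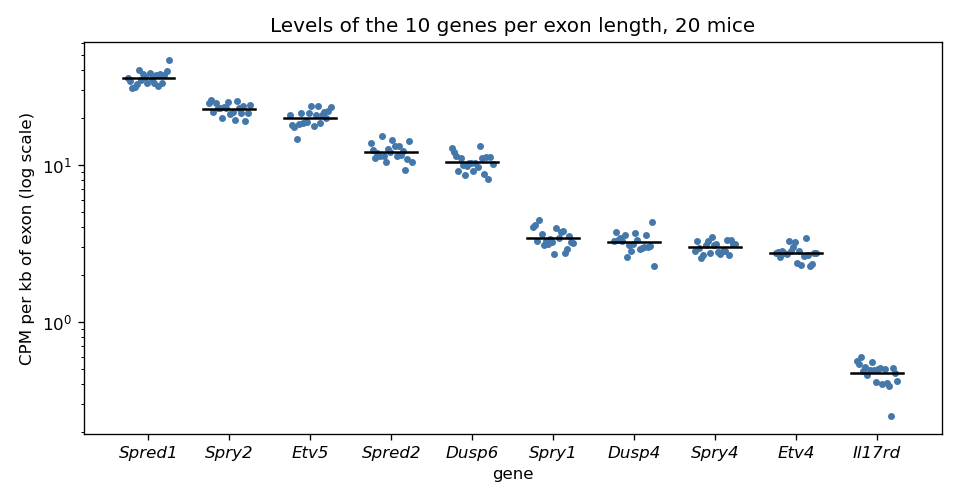
CPM per kb of exon (log scale) of the 10 genes in order of their mean, with 1 point for each of the 20 mice and a line at the mean. *Spred1* (mean 35.9) lies above all values of *Spry2* (22.7), and *Il17rd* (0.474) below all values of *Etv4* (2.75).

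OS against SS housing in control mice asks whether long cohabitation with a female moved the readout of FGF-ERK activity in the POA of males without the transgene. Of the 10 genes, 0 passed the threshold, against 21 of 17004 genes tested (0.124%). Before adjustment 3 of the 10 were under 0.05, where 7.20% of all genes were. Of the 10, 5 were fitted higher and 5 lower, with a median log2 fold change of -0.024 against 0.002 over all genes tested. The groups overlapped for each of the 10 genes, against 1.63% of genes tested whose groups did not overlap.

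Among the Sprouty genes, *Spry1* had the smallest p. Its CPM was 11.6, 12, 9.50, 13 and 10.5 in the 5 control SS mice and 8.91, 9.47, 9.17, 9.81 and 9.40 in the 5 control OS mice. The OS mice sat in a narrow band, and 4 of 5 SS mice lay above all of it while the fifth fell inside it. The fold was 0.827 (95% interval 0.721 to 0.949, edgeR adjusted p = 0.474). On sacrifice dates shared by both housings (2 SS and 5 OS mice) the log2 fold change of *Spry1* was -0.20 (SE 0.132), against -0.27 in all mice. *Spry2* (50.1 ± 3.35 against 47.8 ± 4.05 CPM) and *Spry4* (13.6 ± 1.32 against 14.9 ± 1.31 CPM) overlapped broadly.

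*Spred1*, whose product holds neurofibromin at the membrane to shut off RAS, had 244, 233, 211, 214 and 223 CPM in control SS mice and 274, 235, 257, 247 and 225 CPM in control OS mice. All 5 OS mice lay above the SS median of 223 CPM, and the ranges overlapped. The fold was 1.10 (95% interval 1.01 to 1.20, edgeR adjusted p = 0.623). Its relative *Spred2* averaged 56.1 ± 4.77 and 56.9 ± 8.33 CPM, a fold of 1.01. *Il17rd* averaged 5.93 ± 0.479 and 5.32 ± 0.573 CPM, a fold of 0.897 with an interval from 0.759 to 1.06.

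*Dusp6*, the phosphatase most closely tied to ERK in the cytoplasm, had 40.1, 37.7, 35.8, 28.5 and 34.5 CPM in control SS mice and 31.3, 27.1, 30.9, 32.2 and 32 CPM in control OS mice. The highest 4 values were all SS mice, and 1 SS mouse lay among the lowest values. The fold was 0.869 (95% interval 0.768 to 0.984, edgeR adjusted p = 0.61). Within sacrifice dates its log2 fold change was -0.26 (SE 0.0944), against -0.20 in all mice. *Dusp4*, a nuclear phosphatase, averaged 9.32 ± 0.541 and 8.33 ± 0.993 CPM (fold 0.894, interval 0.773 to 1.03).

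The ETS factors were both fitted slightly higher in OS control mice and neither passed. *Etv4* averaged 8.48 ± 0.253 against 9.30 ± 0.76 CPM, and *Etv5* 73.0 ± 8.87 against 81.1 ± 6.2 CPM, with folds of 1.10 and 1.11.

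**Figure D2:**
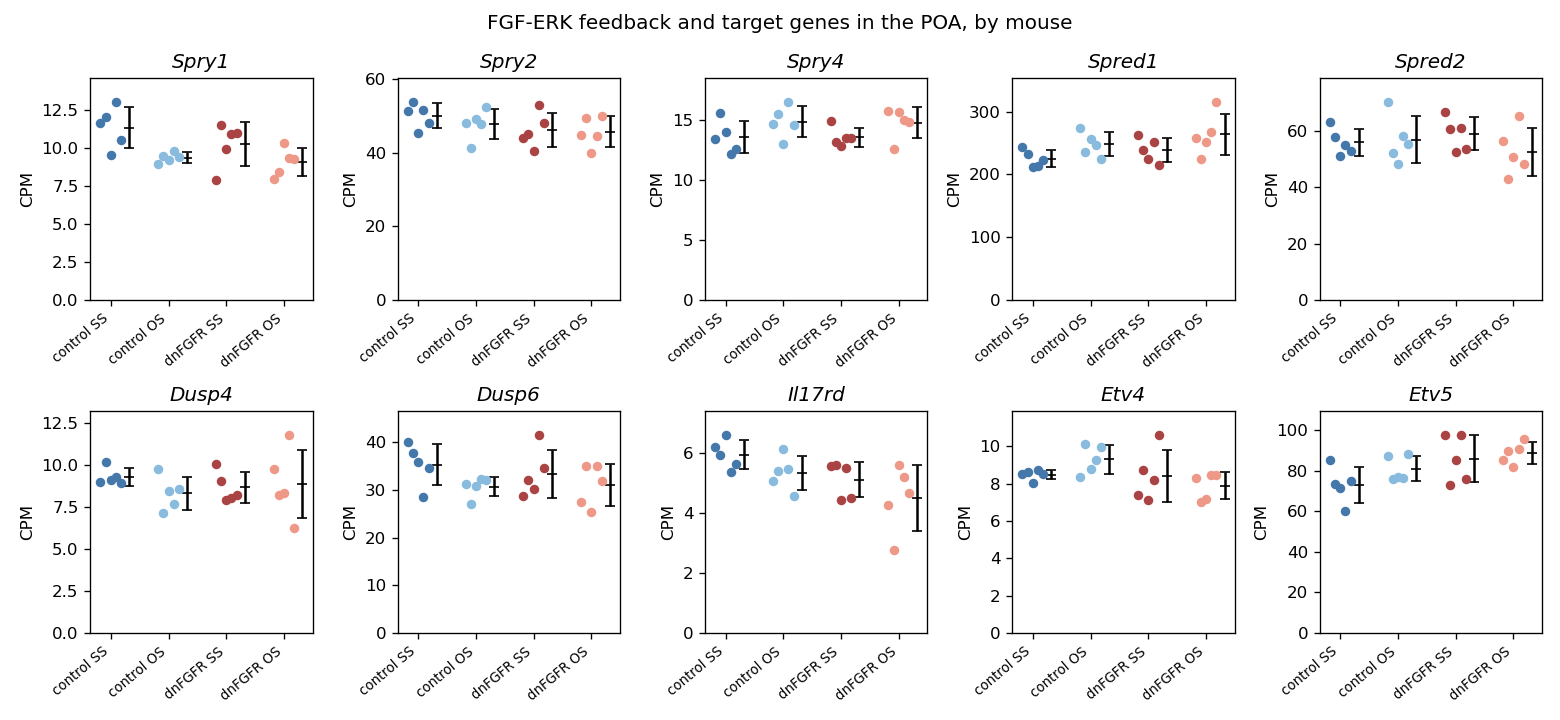
CPM (linear axis from 0) of each of the 10 genes in each mouse, by group, with the mean and SD of 5 mice drawn to the right of the points. The groups overlap for every gene in all 4 pairs compared; control OS mice form a narrow band for *Spry1* (8.91 to 9.81 CPM), and 1 dnFGFR OS mouse is low for *Il17rd* (2.75 CPM).

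In dnFGFR mice, where the question was whether OS housing shifts these genes when FGF signaling in GnRH neurons is impaired, 0 of the 10 passed and 0 of 16944 genes passed (0%). At an unadjusted p under 0.05 there were 0 of the 10 genes and 6.72% of all genes, and DESeq2 called 5 genes over the whole table but none of the 10. No gene had groups that did not overlap, against 1.42% of genes tested. *Spry1* had 7.88, 11.5, 9.94, 10.9 and 11 CPM in dnFGFR SS mice and 7.94, 8.42, 10.3, 9.35 and 9.25 CPM in dnFGFR OS mice. The lowest value of all 10 mice was an SS mouse, and 3 of 5 SS mice lay above every OS mouse. Its fold was 0.881 (interval 0.735 to 1.06), a log2 fold change of -0.18. On shared sacrifice dates (2 SS and 4 OS mice) the log2 fold change was -0.0037 (SE 0.216). *Spred1* had 262, 239, 225, 252 and 215 CPM in SS and 258, 225, 252, 268 and 315 CPM in OS mice. The highest of these is dnFGFR OS replicate 5. The log2 fold change of *Spred1* was 0.15 (SE 0.0923) with this mouse and 0.07 (SE 0.0782) without it. *Il17rd* varied most, with 4.26, 2.75, 5.57, 5.18 and 4.64 CPM in dnFGFR OS mice, and its interval was the widest, from a fold of 0.671 to 1.15. The *Il17rd* log2 fold change was -0.19 in all mice and -0.047 without replicate 2, the lowest of these mice.

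The difference between both housing effects was tested directly over all 20 mice. It passed for 0 of the 10 genes and for 0 of 17445 genes (0%), with 0 of the 10 and 3.41% of all genes under an unadjusted p of 0.05, and DESeq2 and limma voom also called 0 genes. The largest fitted value was that of *Etv4*, a difference of log2 fold changes of -0.23 (SE 0.146), which was -0.12 without dnFGFR SS replicate 5. *Etv4* was 8.51, 8.60, 8.06, 8.72 and 8.54 CPM in control SS mice and 8.34, 10.1, 8.80, 9.26 and 9.97 CPM in control OS mice. In dnFGFR mice it was 7.39, 8.75, 7.13, 8.18 and 10.6 CPM with SS housing and 8.29, 7, 7.20, 8.48 and 8.46 CPM with OS housing. The intervals of this difference reached from a log2 value of -0.53 to one of 0.58 over the 10 genes, so the housing effects of both genotypes were not shown to be alike.

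Averaged over both genotypes, OS housing gave 0 of the 10 genes past the threshold, against 0.0459% of genes. Before adjustment, 3 of the 10 and 11.2% of all genes were under 0.05. *Spry1* was fitted lower by a log2 value of -0.23 (SE 0.0743, edgeR adjusted p = 0.247), *Spred1* higher by 0.14 (SE 0.0556, adjusted p = 0.335) and *Spry4* higher by 0.13 (SE 0.0605, adjusted p = 0.441). Within sacrifice dates, with 4 SS and 9 OS mice, the values were -0.10 (SE 0.112) for *Spry1*, 0.15 (SE 0.092) for *Spred1* and 0.02 (SE 0.0972) for *Spry4*. Of the 3 genes, *Spred1* alone kept its size there.

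**Figure D3:**
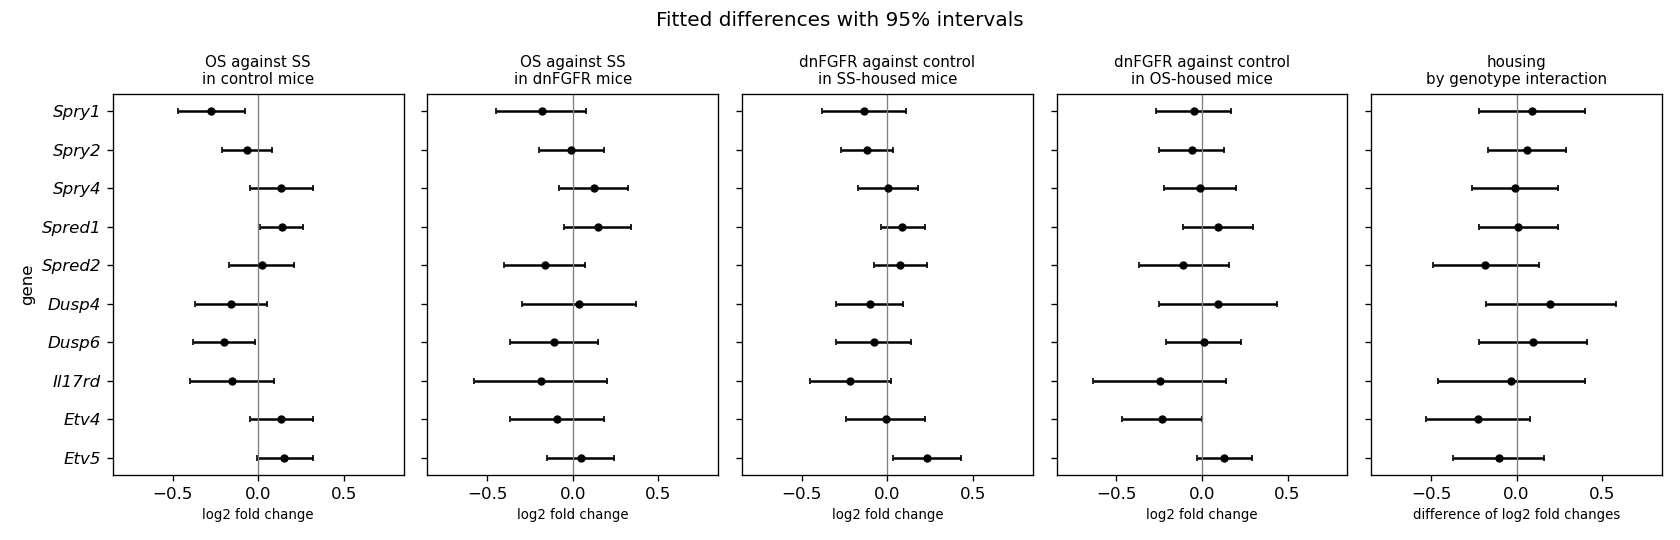
Log2 fold change (points) with its 95% interval (bars) of each of the 10 genes in the 4 pairwise comparisons, and the difference of the housing log2 fold changes between genotypes in the last panel. All points lie between -0.27 and 0.23, and most intervals include 0.

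The comparisons of dnFGFR with control mice ask whether impaired FGF signaling in GnRH neurons is visible in these genes at the level of the tissue. Genotype and sacrifice date cannot be told apart, since no date held mice of both genotypes. In SS-housed mice 0 of the 10 genes passed, against 34 of 16992 genes (0.200%), and in OS-housed mice 0 of the 10 passed, against 9 of 16941 genes (0.0531%). Under an unadjusted p of 0.05 there was 1 of the 10 in each, where 8.63% and 7.02% of all genes were. No gene separated the groups, against 1.57% and 1.55% of genes. Over both housings 0 of the 10 passed and 1.30% of all genes did, with 2 of the 10 and 11.2% of all genes under 0.05 before adjustment.

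*Etv5* had the smallest p with genotype. It had 85.1, 73.4, 71.4, 60.3 and 74.9 CPM in control SS mice and 97.6, 72.9, 85.2, 97.5 and 76.1 CPM in dnFGFR SS mice. The values were 87.3, 76.1, 77.0, 76.6 and 88.4 CPM in control OS mice and 85.4, 89.6, 81.8, 90.8 and 95.8 CPM in dnFGFR OS mice. The highest values were dnFGFR mice in both housings, and the groups overlapped in both. Over both housings the fold was 1.13 (95% interval 1.04 to 1.24, edgeR adjusted p = 0.239). Among the marker lists fitted in the same comparison, 2 of 8 striatal markers passed, *Drd2* and *Rgs9*, both with a log2 fold change of -0.27, and 1 of 6 markers of oligodendrocyte precursors passed, *Sox10* at -0.31. The 6 neuron markers had a median log2 fold change of 0.083. Their part in the *Etv5* values was not tested.

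*Il17rd*, the membrane inhibitor, was fitted lower in dnFGFR mice, with a fold of 0.851 over both housings (95% interval 0.733 to 0.988, edgeR adjusted p = 0.397). It averaged 5.93 ± 0.479 and 5.10 ± 0.595 CPM in control and dnFGFR SS mice, and 5.32 ± 0.573 and 4.48 ± 1.09 CPM in control and dnFGFR OS mice. *Etv4* had a fold of 0.849 in OS-housed mice (interval 0.722 to 0.998, edgeR adjusted p = 0.702) and of 0.993 in SS-housed mice. With OS housing, 5 of 6 oligodendrocyte precursor and 8 of 8 striatal markers were also fitted lower in dnFGFR mice (medians -0.255 and -0.272). Of all 16941 genes tested, 8465 were fitted lower, and 5 of 6 neuron markers were fitted higher. The part of these markers in the *Etv4* values was not tested. The ETS factors were fitted on opposite sides of 0 in OS-housed mice. *Spry4*, *Dusp4* and *Spred2* had folds of 0.997, 0.997 and 0.988 over both housings, with intervals inside 0.875 to 1.14.

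The other genes of the relay were taken from a list of 48, also chosen with earlier results of these data known. Of these, 47 were tested (*Spry3* was not). With housing, 0 of 47 passed in control mice and 0 of 47 in dnFGFR mice, against 0.124% and 0% of all genes. The medians were -0.05 and -0.059 on the log2 scale. Of the 8 adaptors and RAS activators, the smallest p values belonged to *Frs2* (0.07) and *Grb2* (0.05) in control mice and to *Frs3* (-0.29) and *Gab1* (0.14) in dnFGFR mice, all given as log2 fold changes. Of the 12 RAS, RAF, MEK and ERK genes, they included the scaffold *Ksr2* (-0.44) in control mice and *Map2k2* (-0.15) in dnFGFR mice. Of the 6 RAS brakes they were *Cbl* (-0.30) and *Rasa2* (0.04) in control mice, and *Nf1* (0.30) and *Cbl* (-0.29) in dnFGFR mice. Among the relatives of the feedback genes they were *Dusp1* and *Dusp8* in both genotypes, with *Dusp1* at -0.58 and -0.24 and *Dusp8* at -0.09 and -0.15.

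The 13 other ERK-responsive genes were fitted lower in OS mice for 11 of 13 genes in control mice (median -0.132) and for 10 of 13 in dnFGFR mice (median -0.277), while the medians over all genes tested were 0.002 and 0.004. The 8 striatal medium spiny neuron markers were fitted lower with OS housing too, 8 of 8 in both genotypes (medians -0.096 and -0.214), and their part in these values was not tested. The smallest p values were those of the AP-1 subunits *Fos* and *Junb* in control mice and of *Junb* and the synaptic gene *Arc* in dnFGFR mice. *Fos* averaged 34.4 ± 5.94 CPM in control SS and 23.3 ± 4.51 CPM in control OS mice (log2 fold change -0.56, SE 0.135, edgeR adjusted p = 0.212). *Junb* averaged 69.5 ± 7.38 against 50.0 ± 12.3 CPM in control mice (-0.48, adjusted p = 0.261), and 64.0 ± 19.5 against 37.1 ± 14.9 CPM in dnFGFR mice (-0.79, adjusted p = 0.726). *Fos*, *Dusp1* and *Junb* in control mice passed under 4, 3 and 3 of the 18 alternatives tried, and none of the 10 feedback genes passed under any.

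1 gene of the 47 tested on the list passed with genotype, in SS-housed mice and over both housings. Of all genes, 0.200% and 1.30% passed in these comparisons. *Ccnd1*, the cyclin that growth factors raise through ERK to start the cell cycle, averaged 42.0 ± 3.83 CPM in control SS mice and 28.2 ± 1.76 CPM in dnFGFR SS mice. The control mice ranged from 38.1 to 47.0 CPM and the dnFGFR mice from 25.9 to 30.4 CPM. The groups did not overlap, as was so for 1.57% of genes tested. The log2 fold change was -0.57 (SE 0.067, edgeR adjusted p = 0.00342), the smallest p of all genes tested there, and *Ccnd1* passed under 16 of 16 alternatives. In OS-housed mice it averaged 39.8 ± 5.02 and 29.6 ± 2.07 CPM (-0.42, SE 0.0964, adjusted p = 0.329, passed under 2 of 16 alternatives), and over both housings the log2 fold change was -0.50 (adjusted p = 7.92e-05). *Sox10*, the oligodendrocyte lineage marker that passed in that comparison, and the striatal markers given above were lower in the same mice. In SS-housed mice alone, 6 of 6 endothelial and 6 of 6 oligodendrocyte precursor markers were fitted lower (medians -0.292 and -0.156). So were 8 of 8 oligodendrocyte (median -0.141), 6 of 8 astrocyte and 4 of 7 microglia markers, against 8227 of 16992 genes tested. There, 5 of 6 neuron markers were fitted higher, and none of these markers passed. The part of all these markers in the *Ccnd1* values was not tested. For the 10 feedback genes the median log2 fold change with genotype over both housings was -0.026, with 2 fitted higher and 8 lower.

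Covariation between mice was taken from log2 CPM after the mean of each group was removed, so that it holds no housing or genotype effect. Of the 45 pairs of the 10 genes, 32 had a positive r, with a median of 0.117 and a range from -0.456 to 0.668, and 0 passed an adjusted p of 0.05 (permutation of mice within groups). The highest were *Spred2* with *Dusp4* (r = 0.668, rho = 0.638, permutation adjusted p = 0.243 and 0.271) and *Spry2* with *Dusp6* (r = 0.633, rho = 0.591, permutation adjusted p = 0.243 and 0.271). Without the 2 mice farthest from the median of the first gene, these r were 0.452 and 0.513. Without dnFGFR OS replicate 5, 1 pair passed, *Spred1* with *Spred2* (r = 0.774, permutation adjusted p = 0.0243).

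Each of the 10 genes was also compared with the 21 tested relatives and ERK-responsive genes, 210 relations in all, a comparison added after the genes nearest to each member had been seen. Of these, 4 passed with Pearson's r and 3 of the 4 also with Spearman's rho. The strongest was *Spry2* with *Egr2*, a transcription factor gene that neuronal activity and growth factors induce within minutes (r = 0.888, permutation p = 2e-05, adjusted p = 0.0042; rho = 0.826, permutation p = 5e-05, adjusted p = 0.0105). Of 17444 other genes, *Spry2* had the highest r with *Egr2*. Without the 2 mice farthest from the median *Egr2* value r was 0.835, and with each mouse left out it ranged from 0.856 to 0.915. Within group and sacrifice date, over 10 mice, r was 0.888, a value that was not tested. Without dnFGFR OS replicate 5 it was 0.904.

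The mice at both ends show the pattern. *Egr2* deviated most from its group mean in dnFGFR OS replicate 3 (-1.043 on the log2 scale), dnFGFR SS replicate 3 (-1.01) and control OS replicate 2 (-0.589), and *Spry2* deviated by -0.19, -0.18 and -0.204 in these mice. At the other end, *Egr2* was above its group mean by 1.015 in dnFGFR SS replicate 4 and by 0.728 in control OS replicate 5, with *Spry2* above by 0.205 and 0.14. *Spry2* thus followed *Egr2* in direction over a much smaller range, between 40 and 53.8 CPM over all mice against 2.37 to 17.0 CPM for *Egr2*.

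*Dusp6* passed with *Arc*, an immediate early gene of synapses (r = 0.727, permutation adjusted p = 0.0252; rho = 0.689, permutation adjusted p = 0.0743). Without the 2 mice farthest from the median *Arc* value r was 0.698, and within group and date it was 0.774, again not tested. *Egr1* with *Dusp6* (r = 0.766, rho = 0.752), and *Fos* and *Arc* with *Spry2* (r = 0.726 and 0.731, rho = 0.702 and 0.671), each had a permutation adjusted p of 0.0519 for r. Among all genes searched by Spearman's rho, *Nr4a1*, another immediate early gene, was the nearest to *Dusp6* (rho = 0.8). *Spry1* had an r of 0.0518 with *Egr2*, 0.0987 with *Arc*, 0.0448 with *Fos* and 0.0683 with *Egr1*, none past the threshold. The Sprouty gene with the lowest p for housing was thus not one of those that passed with an immediate early gene. *Spry4* had an r of -0.122 with *Egr2*. The differences between these r values were not tested.

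**Figure D4:**
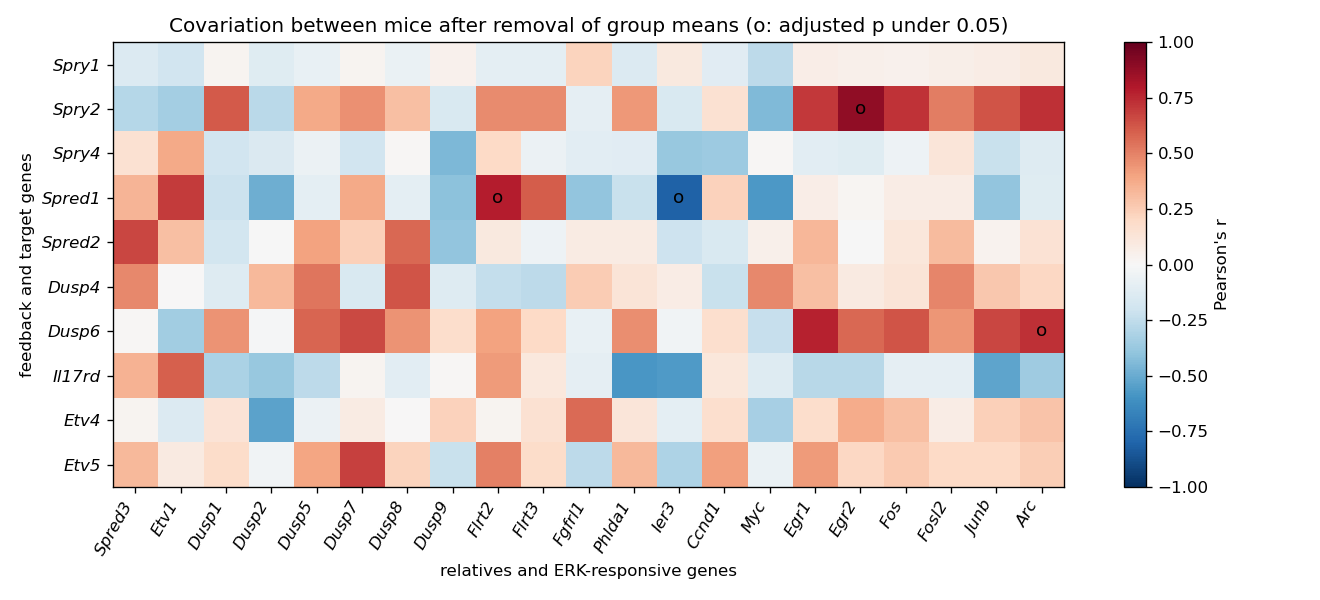
Pearson's r (colour) between each of the 10 genes (rows) and 21 relatives and ERK-responsive genes (columns) over 20 mice, from log2 CPM with group means removed; o marks an adjusted p under 0.05. *Spry2* and *Dusp6* are red across *Egr1*, *Egr2*, *Fos*, *Junb* and *Arc*, and *Spry1* is near 0 across them.

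*Spred1* passed with 2 genes. With *Flrt2*, a membrane protein gene of a family that binds FGF receptors, r was 0.787 (rho = 0.756, permutation adjusted p = 0.0441 and 0.0399), and with *Ier3*, an early response gene, r was -0.808 (rho = -0.758, permutation adjusted p = 0.0457 and 0.0434). Without the 2 mice farthest from the median of the second gene, r was 0.67 and -0.602. Without dnFGFR OS replicate 5 both fell below the threshold, with r = 0.654 (permutation adjusted p = 0.0989) and r = -0.694 (adjusted p = 0.0898). Of 17444 other genes, *Spred1* stood 724th by its r with *Flrt2*, and 4.15% of genes had at least that r. *Spred1* was nearest in rank to *Wdr26* (rho = 0.955), *Gucy1a2* (0.95) and *Appbp2* (0.937).

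**Figure D5:**
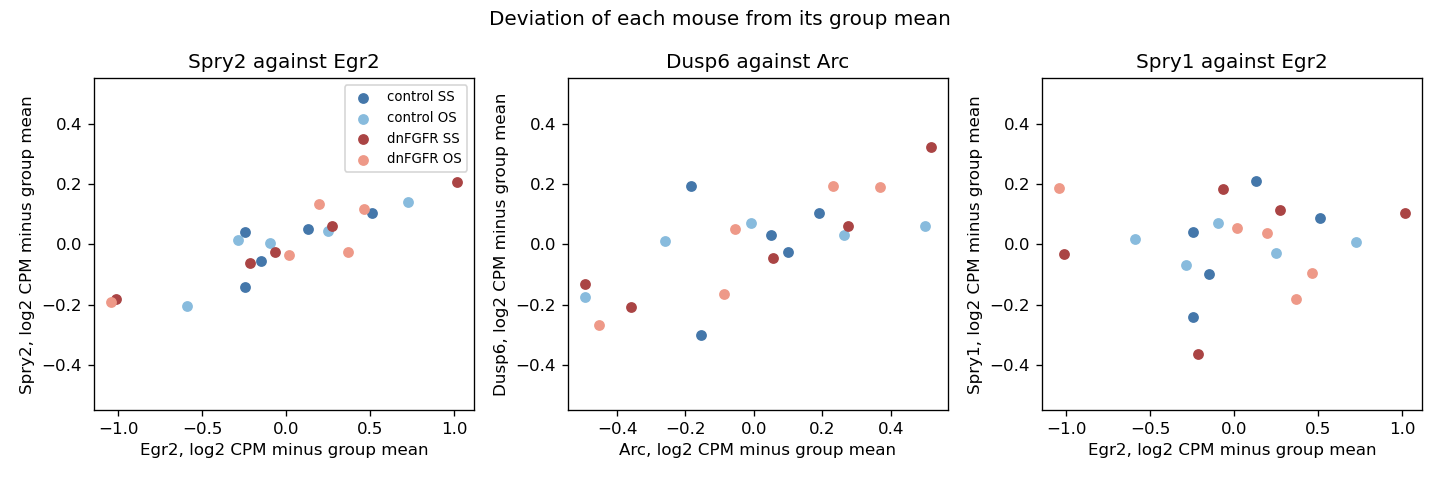
Deviation of each mouse from its group mean (log2 CPM), for *Spry2* against *Egr2*, *Dusp6* against *Arc* and *Spry1* against *Egr2*, with 1 point per mouse coloured by group. *Spry2* rises with *Egr2* across all groups (r = 0.888), *Dusp6* rises with *Arc* (r = 0.727), and *Spry1* shows no such order (r = 0.0518).

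The 10 genes were compared in the same way with the mean of 9 lists of cell type markers, 90 relations in all, of which 2 passed with Pearson's r and 4 with Spearman's rho. *Etv5* rose with the neuron markers (r = 0.814, rho = 0.792, permutation adjusted p = 0.0333 and 0.0189), and with the 2 farthest mice left out r was 0.732. *Etv5* fell as the oligodendrocyte precursor markers rose (r = -0.599, rho = -0.741, permutation adjusted p = 0.0652 and 0.0267) and as the oligodendrocyte markers rose (r = -0.612, rho = -0.711, permutation adjusted p = 0.0729 and 0.0425), past the threshold by rho alone. Without the 2 farthest mice these r were -0.74 and -0.678. *Spred1* fell as the microglia markers rose (r = -0.725, rho = -0.817, permutation adjusted p = 0.0333 and 0.0189), and r was -0.711 without the 2 farthest mice. *Dusp6* had an r of 0.667 with neuron and -0.649 with oligodendrocyte markers (permutation adjusted p = 0.0729 for both), not past the threshold. *Spry2* had -0.633 with oligodendrocyte markers (adjusted p = 0.113). With the POA markers r was 0.645 for *Spry4* (permutation adjusted p = 0.0639), -0.57 for *Spry2* (0.169) and -0.514 for *Dusp6* (0.285), none past the threshold. The part of all these markers in the relations of *Spry2* with *Egr2* and of *Dusp6* with *Arc* was not tested. Marker relations were not computed again without dnFGFR OS replicate 5. In rank, *Etv5* was nearest to *Vxn* (rho = 0.892) and *Herc3* (0.887), and *Etv4* to *Sox10* (0.809), *Cdc42ep1* (0.779) and *F2rl2* (0.764). The other genes had their nearest neighbours at lower or similar values: *Spry2* at *Cwc25* (0.868), *Il17rd* at *Endov* (0.83), *Spry4* at *Chd1l* (0.829), *Spred2* at *Sik2* (0.809), *Spry1* at *Tex52* (0.798) and *Dusp4* at *Slc19a2* (0.762). These neighbours were searched among 17444 genes over 20 mice and are given as a description.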

How the data were processed

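The authors had the reads of the 20 POA libraries aligned by HISAT2 to GRCm38 and summed per RefSeq gene by Rsubread, and deposited raw counts. Options for strand and for reads with several positions are not given in the sources used here. The table's other 20 columns match no sample described and were not used. Groups came from the labels, and sacrifice dates from the study's list of mice.

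Genes were tested with edgeR 4.0.16 in R 4.3.3 (TMM, filterByExpr, two-sided quasi-likelihood test, Benjamini-Hochberg adjusted p under 0.1 over all genes). Each pair of groups was fitted on its own 10 mice, and means and the interaction on all 20. All 10 genes passed the filter in each fit. CPM are TMM-scaled, and log2 CPM had a prior count of 2. Correlations were tested with 100000 permutations of mice within groups, at an adjusted p of 0.05. Libraries of a group differed by more than sampling noise. On simulated data for OS against SS in control mice (16861 genes), 76.5% of 200 changes of 0.5 and 98% of 200 changes of 1 on the log2 scale were recovered. For the interaction (17314 genes), 23% and 86% were.

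The members and gene lists were chosen with earlier results of these data known. All members are named. Of the wider list, every gene that passed is named, with the 2 smallest p per role for housing in each genotype. A few genes that these rules select are not reported here. Of the 3 nearest patterns per member, the first is named for all and the rest for some. Alternatives were DESeq2 1.42.0, limma 3.58.1 (voom, quality weights), RLE factors, an unfiltered table, all groups in 1 fit, the replicate number as block, shared sacrifice dates, and each mouse left out.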

Additional observations from a re-analysis of the deposited data

Results flagged for a closer look

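Of 40 groups of 5 values (10 genes in 4 groups), 1 held a mouse far from the others. In control OS mice *Dusp6* was 27.1 CPM in replicate 2, against 30.9 to 32.2 CPM in the other 4 mice. The gap took 0.74 of the group's range, above the limit of 0.71 for 5 values. Chance flags about 1 group in 20. Without this mouse, 0 of the 10 genes passed in OS against SS control mice (edgeR).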

How the results depend on the processing

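None of the 10 genes passed in any of 7 comparisons under any of 144 alternative fits. The smallest adjusted p was 0.102, for OS against SS over both genotypes without dnFGFR OS replicate 2. Of 1440 alternative values of single genes, 75 had another sign than the reported value, all where neither fit had an unadjusted p under 0.05. For OS against SS in control mice, *Spry1* stayed between -0.33 and -0.22 and *Dusp6* between -0.27 and -0.16 on the log2 scale with each mouse left out.

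The number of all genes that passed depended more on the tool. In the order control housing, dnFGFR housing, genotype with SS, genotype with OS, genotype over both housings and housing over both genotypes, edgeR called 21, 0, 34, 9, 226 and 8, and DESeq2 called 157, 5, 225, 78, 436 and 327. Over 1 object without dnFGFR OS replicate 5, a setting added after seeing the data, DESeq2 called 72 genes for housing in dnFGFR mice. With each mouse left out, edgeR gave 0 to 32, 0, 21 to 70, 3 to 16, 157 to 337 and 0 to 398. The cause was not tested.

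Deviations of same-numbered mice had an r from -0.235 to 0.259, with no reference set beside them, so whether the numbers pair mice was not settled. The main fits did not pair mice by number. With the replicate number as block, 0 of the 10 genes passed in all 7 comparisons.

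For pairs among the 10 genes, 0 of 45 passed with all mice, and 1 without dnFGFR OS replicate 5. Both *Spred1* relations with ERK-responsive genes were lost without that mouse, while those of *Spry2* with *Egr2* and *Dusp6* with *Arc* passed there and under both other settings tried, a prior count of 0.5 and RLE size factors.

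Changes of 0.5 in log2 were mostly, not always, recoverable for OS against SS in control mice and seldom in the interaction. Smaller changes and the other pairs of groups, among them the dnFGFR mice, were not simulated. Genotype cannot be told apart from sacrifice date. Within shared dates, only 2 SS mice per genotype remained.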
